A study of Homo sapiens with 6 samples.

Results

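The genes described here encode the TRAF adaptors TRAF1, TRAF2, TRAF3, TRAF4, TRAF5 and TRAF6, the kinase NIK (gene MAP3K14) and the ubiquitin ligases cIAP1 (gene BIRC2) and cIAP2 (gene BIRC3). They were chosen by name, as the rows of the count table whose Ensembl identifier maps to one of these symbols on a primary chromosome, and they are 9 of the 63677 genes in the table. RNA-Seq was carried out on RPMI8226, an established human multiple myeloma (MM) cell line given as wild type. Whether the line carries mutations in the genes described here was not tested. For 6 hr the cells received either GST-PTR1 or GST, each at 100 nM, with 3 biological replicates of each. In GST-PTR1, glutathione-S-transferase (GST) carries the PTR1 domain of HAPLN1, a matrix protein. Both groups thus received GST, and the intended difference was the PTR1 domain. The fusion was produced in bacteria, and the authors report bacterial lipopolysaccharide far below the level that their NF-κB binding assay detects. Whether the preparations differed otherwise was not tested. All libraries came from a single cell line, and p-values describe the spread between these libraries.

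TRAF proteins link receptors of the TNF receptor family to kinases and ubiquitin ligases. In resting cells TRAF3 holds NIK in a complex with TRAF2 and the cIAPs, which mark NIK for degradation. When receptors such as CD40 or the BAFF receptor are engaged, TRAF3 is degraded instead, NIK accumulates and activates IKKα, and the NFKB2 precursor is processed to the subunit that pairs with RelB. This is the noncanonical NF-κB pathway, and loss of TRAF3 or the cIAPs and gain of NIK are known lesions of MM. NIK is controlled largely at the protein level, which these mRNA counts did not measure.

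GST libraries 1, 2 and 3 held 15202503, 23453473 and 20077280 counts, and GST-PTR1 libraries 1, 2 and 3 held 22874133, 44688737 and 28837431. The libraries are numbered here in the order of the numbers in the names of the table's columns. Libraries 2 and 3 of both treatments share a column number, which no label ties to a shared culture or day, and no pairing was used. Defining plasma cell genes were detected in every library, with the 9 marker genes summing to 4285 to 5238 CPM with GST and 3743 to 4326 CPM with GST-PTR1, where CPM is a count scaled to the total of its library. JCHAIN (2324 CPM with GST) and MZB1 (952 CPM) made up most of that sum, and SLAMF7 (5.97 CPM) was the lowest. With GST-PTR1, SDC1, TNFRSF17 and XBP1 were called lower, PRDM1, IRF4 and SLAMF7 higher, and the other 3 were not called. All 3 T cell markers were at or under 3 counts in every library. The 3 B cell markers summed to 1.88 to 2.43 CPM with GST and 1.97 to 2.29 CPM with GST-PTR1, the 3 monocyte and macrophage markers to 0.767 to 1.91 and 0.902 to 1.44 CPM, the 3 stromal markers to 0.263 to 0.554 and 0.336 to 0.393 CPM, and the 3 erythroid markers to 2.17 to 2.89 and 1.62 to 2.57 CPM. In bulk RNA a change in every cell and a larger change in some of the cells cannot be told apart.

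Promoter sequences are shown first for BIRC3 and TRAF3, because these were the only members in which a script found the NF-κB consensus, and for BIRC2 and TRAF4 as members without it. Each run is the 250 bases before a RefSeq transcription start on GRCh38.p14, written 5′ to 3′ on the strand of the gene, and capitals mark the matches. BIRC3 lies at chr11:102317234-102317483, TRAF3 at chr14:102777199-102777448, BIRC2 (the first of its 2 starts) at chr11:102346964-102347213 and TRAF4 at chr17:28743761-28744010, all on the plus strand.
BIRC3: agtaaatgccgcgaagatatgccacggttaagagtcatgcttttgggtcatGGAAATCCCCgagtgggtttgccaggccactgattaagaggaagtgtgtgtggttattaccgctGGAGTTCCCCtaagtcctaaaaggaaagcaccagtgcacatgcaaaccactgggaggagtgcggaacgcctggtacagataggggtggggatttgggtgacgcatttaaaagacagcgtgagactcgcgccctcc
TRAF3: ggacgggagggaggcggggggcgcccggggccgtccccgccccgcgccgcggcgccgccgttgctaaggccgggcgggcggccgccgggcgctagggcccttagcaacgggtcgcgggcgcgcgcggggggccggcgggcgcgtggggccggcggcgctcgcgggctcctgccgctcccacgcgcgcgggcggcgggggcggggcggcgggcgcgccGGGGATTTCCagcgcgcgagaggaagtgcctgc
BIRC2: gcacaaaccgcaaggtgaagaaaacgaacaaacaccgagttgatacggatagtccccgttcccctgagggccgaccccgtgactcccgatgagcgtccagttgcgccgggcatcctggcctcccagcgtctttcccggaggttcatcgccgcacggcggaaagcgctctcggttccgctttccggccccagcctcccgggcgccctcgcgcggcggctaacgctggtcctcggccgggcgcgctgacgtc
TRAF4: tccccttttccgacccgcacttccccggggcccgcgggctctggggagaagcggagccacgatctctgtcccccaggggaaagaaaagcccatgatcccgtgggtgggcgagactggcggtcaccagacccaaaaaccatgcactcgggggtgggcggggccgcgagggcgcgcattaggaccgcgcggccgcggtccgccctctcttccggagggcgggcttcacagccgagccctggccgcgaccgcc

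The BIRC3 window held 2 matches, both read on the minus strand. The first was GGGGATTTCC, 199 to 190 bases before the start, and the second was GGGGAACTCC, 135 to 126 bases before it. The TRAF3 window, of 86.4% G and C, held GGGGATTTCC on the plus strand, 33 to 24 bases before the start. So both windows carried the same 10 bases, on opposite strands. The search used the NF-κB consensus on both strands over 14 windows of all 9 members, and the other 12 windows held no match. Of all 35116 windows of this length in the RefSeq table, 9.96% held a match, 1.72% held 2 or more, and 38 held GGGGATTTCC. A match is a description of the letters and not evidence of binding.

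With GST-PTR1, 5 of the 9 genes rose (TRAF1, TRAF3, TRAF4, BIRC2 and BIRC3), TRAF5 fell, and TRAF2, TRAF6 and MAP3K14 did not pass the test. BIRC3 changed by far the most, 15.2-fold, and TRAF4 followed with 3.42-fold. Each of 16926 genes was tested with edgeR (quasi-likelihood), p-values were adjusted over all of them by Benjamini-Hochberg, and a gene was called at an adjusted p under 0.05. Of all genes tested, 20.6% were called, 9.15% as higher and 11.4% as lower. Changes of at least 2-fold were called for 4 members as higher, against 3.68% of all genes, and for 1 member as lower, against 3.85%. This count of 5 fell to 4 when GST library 2, GST library 3, GST-PTR1 library 2 or GST-PTR1 library 3 was left out. With each library scaled by its total instead, TRAF1 was at 0.96 and TRAF3 at 0.82 on the log2 scale, under 2-fold. The median log2 fold change was 0.56 over the members and 0.01 over all genes tested. In CPM, the libraries of the 2 treatments did not overlap for the 5 genes that rose and the 1 that fell, where 43.1% of all genes did so, 8.71% upward and 34.4% downward. The members were chosen with earlier results of these data known, so these counts and shares describe the set and do not test it.

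**Figure D1:**
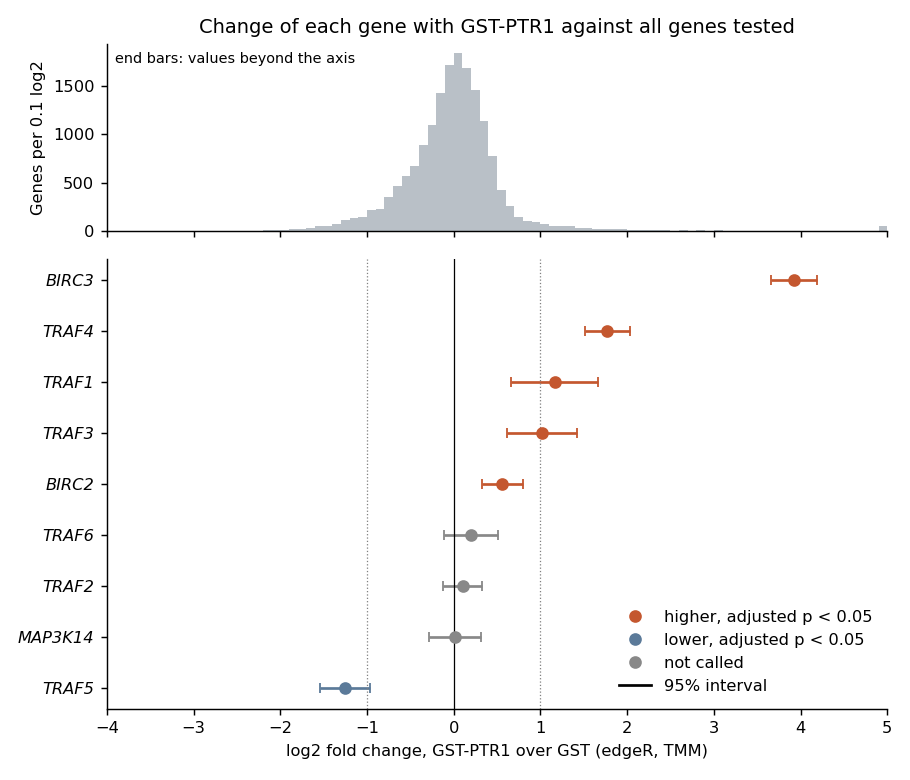
Upper panel: number of genes (y axis) by log2 fold change, GST-PTR1 over GST (x axis), over all genes tested, with values beyond the axis gathered in the end bars. Lower panel: the 9 members with 95% confidence intervals, where BIRC3 stands at 3.92, TRAF5 lies below 0 at -1.25, and the intervals of TRAF2, TRAF6 and MAP3K14 cross 0.

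Levels are given as RPKM, reads per kilobase of exon after scaling each library to the same total, while fold changes come from the fit with TMM factors. When library totals replaced these factors, the median gene moved by -0.20 on the log2 scale. The calls of all 9 members were the same under both scalings.

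BIRC3 encodes cIAP2, a ubiquitin ligase and a well-known NF-κB target that also restrains apoptosis. Its gene spans 102188215 to 102210134 on the plus strand of chromosome 11 (GRCh37), with 12 merged exons of 7484 bases. The counts were 384, 716 and 573 with GST and 9118, 15766 and 10688 with GST-PTR1. The level was 3.38, 4.08 and 3.81 RPKM with GST and 53.3, 47.1 and 49.5 RPKM with GST-PTR1, so every GST-PTR1 library lay far above every GST library. The log2 fold change was 3.92 (SE 0.12, 95% confidence interval 3.66 to 4.19, edgeR's quasi-likelihood test, adjusted p = 7.82e-09). Among the 9 members BIRC3 stood 6th in mean RPKM with GST and 1st with GST-PTR1.

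BIRC2 encodes cIAP1, the close relative of cIAP2, and begins 7807 bases past the end of BIRC3 on the same strand, from 102217942 to 102249401 on chromosome 11 (GRCh37). Its level was 9.15, 9.12 and 9.85 RPKM with GST and 12.1, 12.5 and 11.5 RPKM with GST-PTR1. The libraries did not overlap, and the log2 fold change was 0.56 (SE 0.11, 95% confidence interval 0.32 to 0.80, edgeR, adjusted p = 0.00424), or 1.48-fold. The RPKM ratio of BIRC3 to BIRC2 within a library, which does not depend on scaling between libraries, was 0.401 ± 0.0410 (SD, n = 3) with GST and 4.16 ± 0.347 (SD, n = 3) with GST-PTR1. In these cells cIAP2 mRNA was thus below cIAP1 mRNA in all 3 GST libraries and above it in all 3 GST-PTR1 libraries. The ratio was 10.4-fold higher with GST-PTR1 (exact two-sided permutation test, p = 0.1, the smallest that 3 libraries against 3 allow). Over the 4 ratios computed within libraries, the Benjamini-Hochberg value of each exact test was likewise 0.1.

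**Figure D2:**
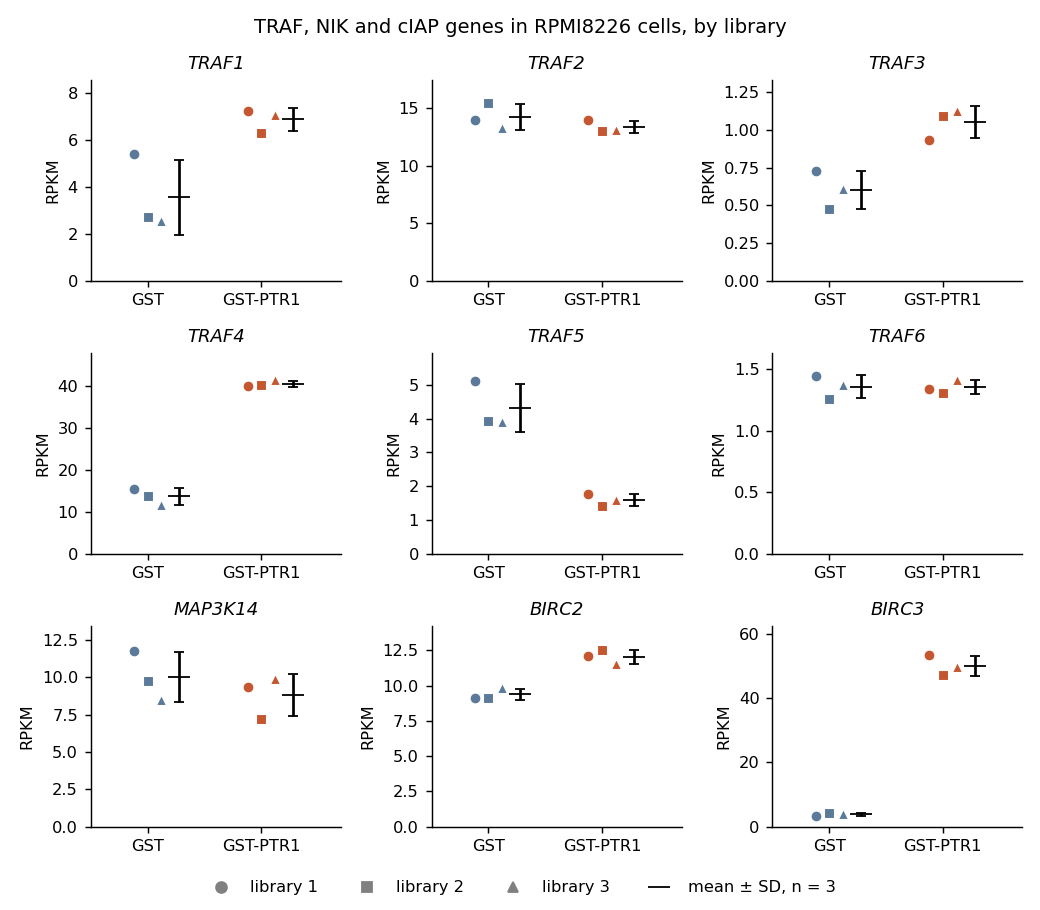
Level of each member in RPKM, on linear axes that start at 0 and differ between panels, in the 3 GST and the 3 GST-PTR1 libraries, with a symbol for each library and the mean ± SD beside them. The BIRC3 libraries move from between 3.38 and 4.08 to between 47.1 and 53.3, and TRAF3 holds the lowest level in both treatments.

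TRAF3, the adaptor that recruits NIK to the ligases, was the least abundant of the 9 genes with GST. It lies on the plus strand of chromosome 14 from 103243813 to 103377837 (GRCh37), with 15 merged exons of 8263 bases. The counts were 91, 92 and 101 with GST and 176, 404 and 269 with GST-PTR1. The level was 0.724, 0.475 and 0.609 RPKM with GST, at percentile 13.5 of all genes tested, and 0.931, 1.09 and 1.13 RPKM with GST-PTR1, at percentile 24.4. The treatments did not overlap, and TRAF3 remained the lowest of the members after it rose. Its log2 fold change was 1.02 (SE 0.18, 95% confidence interval 0.62 to 1.43, edgeR, adjusted p = 0.00276), or 2.03-fold. Counting error alone gives a coefficient of variation of 10.3% at these GST counts, and the GST libraries varied by 20.7%.

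MAP3K14 encodes NIK, the kinase that the complex holds at a low protein level. It lies on the minus strand of chromosome 17 from 43340488 to 43394414 (GRCh37). An antisense gene, MAP3K14-AS1, overlaps 13.9% of its exon bases on the other strand, and only a strand-specific count keeps the genes apart. The level was 11.8, 9.78 and 8.45 RPKM with GST and 9.39, 7.20 and 9.88 RPKM with GST-PTR1, and the libraries overlapped. The log2 fold change was 0.01, with a 95% confidence interval of -0.29 to 0.31 (edgeR, adjusted p = 0.96), so changes beyond about 1.24-fold in either direction lay outside the interval. With library totals the value was -0.18. The RPKM ratio of MAP3K14 to TRAF3 was 16.9 ± 3.40 (SD, n = 3) with GST and 8.47 ± 1.77 (SD, n = 3) with GST-PTR1. It was 2.00-fold lower with GST-PTR1, with no overlap between libraries (exact two-sided permutation test, p = 0.1, the smallest possible). As MAP3K14 did not pass the test, this ratio largely restates the 2.03-fold rise of TRAF3.

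TRAF2, which bridges TRAF3 to the cIAPs, was the most abundant member with GST. It lies on the plus strand of chromosome 9 from 139776364 to 139821059 (GRCh37). Its level was 14.0, 15.5 and 13.3 RPKM with GST and 14.0, 13.0 and 13.1 RPKM with GST-PTR1, and the libraries overlapped. The log2 fold change was 0.10, with a 95% confidence interval of -0.12 to 0.33 (edgeR, adjusted p = 0.496), and -0.09 with library totals. The ratio of TRAF3 to TRAF2 was 0.0427 ± 0.0109 (SD, n = 3) with GST and 0.0788 ± 0.0108 (SD, n = 3) with GST-PTR1, 1.88-fold higher without overlap (exact two-sided permutation test, p = 0.1). As TRAF2 did not pass the test, this too largely restates the rise of TRAF3.

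TRAF1, an adaptor without the RING domain of the other TRAFs and a known NF-κB target, lies on the minus strand of chromosome 9 from 123664671 to 123691451 (GRCh37). Its level was 5.40, 2.71 and 2.53 RPKM with GST and 7.23, 6.29 and 7.05 RPKM with GST-PTR1. GST library 1 was 2.13-fold above the lowest GST library yet below every GST-PTR1 library. The log2 fold change was 1.16 (SE 0.23, 95% confidence interval 0.66 to 1.67, edgeR, adjusted p = 0.00473), the widest interval of the 9 members. Without GST library 1 it was 1.56. GST library 1, the one with the fewest counts, was also the highest GST library for 6 of the 9 members. For how many of all genes tested it was the highest was not counted, so this may not be particular to the members. The ratio of TRAF1 to TRAF2 was 0.250 ± 0.117 (SD, n = 3) with GST and 0.512 ± 0.0280 (SD, n = 3) with GST-PTR1 (exact two-sided permutation test, p = 0.1), 2.19-fold higher. This largely restates the rise of TRAF1, as TRAF2 did not pass the test.

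**Figure D3:**
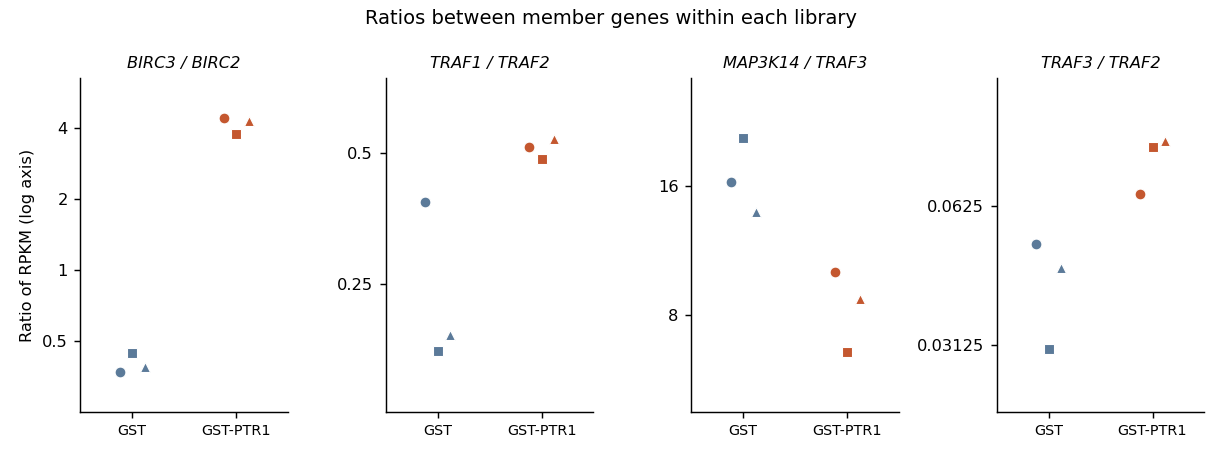
RPKM ratio within each library (log axes) for 4 pairs of members with GST and GST-PTR1, where the circle, square and triangle are libraries 1, 2 and 3 of a treatment. In each pair the libraries of the treatments do not overlap, and BIRC3 to BIRC2 moves the furthest, from a mean of 0.401 to 4.16.

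TRAF4 is an adaptor less tied to TNF receptors than its relatives and known from epithelial and developmental work. It lies on the plus strand of chromosome 17 from 27071002 to 27077974 (GRCh37), and 16.9% of its exon bases overlap genes on the other strand. The counts were 1078, 1491 and 1066 with GST and 4197, 8242 and 5472 with GST-PTR1. The level was 15.4, 13.8 and 11.6 RPKM with GST and 39.9, 40.1 and 41.3 RPKM with GST-PTR1, so the GST-PTR1 libraries lay close together and well above the others. The log2 fold change was 1.77 (SE 0.12, 95% confidence interval 1.52 to 2.03, edgeR, adjusted p = 1.59e-06).

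TRAF5, which acts with TRAF2 at CD40, CD27 and related receptors, was the one member that fell. It lies on the plus strand of chromosome 1 from 211499957 to 211548288 (GRCh37). The counts were 703, 829 and 704 with GST and 364, 562 and 411 with GST-PTR1. The level was 5.13, 3.92 and 3.89 RPKM with GST and 1.76, 1.39 and 1.58 RPKM with GST-PTR1, without overlap. TRAF5 was 2.38-fold lower with GST-PTR1 (log2 fold change -1.25, SE 0.13, 95% confidence interval -1.54 to -0.96, edgeR, adjusted p = 6.37e-05).

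TRAF6, the adaptor of Toll-like and IL-1 receptors that feeds the canonical pathway, lies on the minus strand of chromosome 11 from 36508577 to 36531822 (GRCh37). Its level was 1.44, 1.26 and 1.37 RPKM with GST and 1.34, 1.31 and 1.42 RPKM with GST-PTR1, with overlap. The log2 fold change was 0.20, with a 95% confidence interval of -0.12 to 0.51 (edgeR, adjusted p = 0.346).

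As a share of the summed RPKM of the 6 TRAF genes, TRAF4 made up 36.0 ± 1.10% (SD, n = 3) with GST and 62.6 ± 1.17% with GST-PTR1. The share of TRAF2 was 38.1 ± 4.24% with GST and 20.7 ± 0.760% with GST-PTR1, although its own level did not pass the test. TRAF5 went from 11.4 ± 0.916% to 2.44 ± 0.252%. TRAF6 held 3.63 ± 0.427% with GST and 2.09 ± 0.0585% with GST-PTR1, and its own level did not pass the test either. Shares of a sum are bound to each other, so a share can move when only another gene of the sum changes. The libraries did not overlap for these 4 shares, which are values without a test. They overlapped for TRAF1, at 9.20 ± 3.12% and 10.6 ± 0.592%, and for TRAF3, at 1.60 ± 0.303% and 1.63 ± 0.172%. The sum itself was 37.7 ± 4.45 RPKM with GST and 64.7 ± 1.26 RPKM with GST-PTR1.

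**Figure D4:**
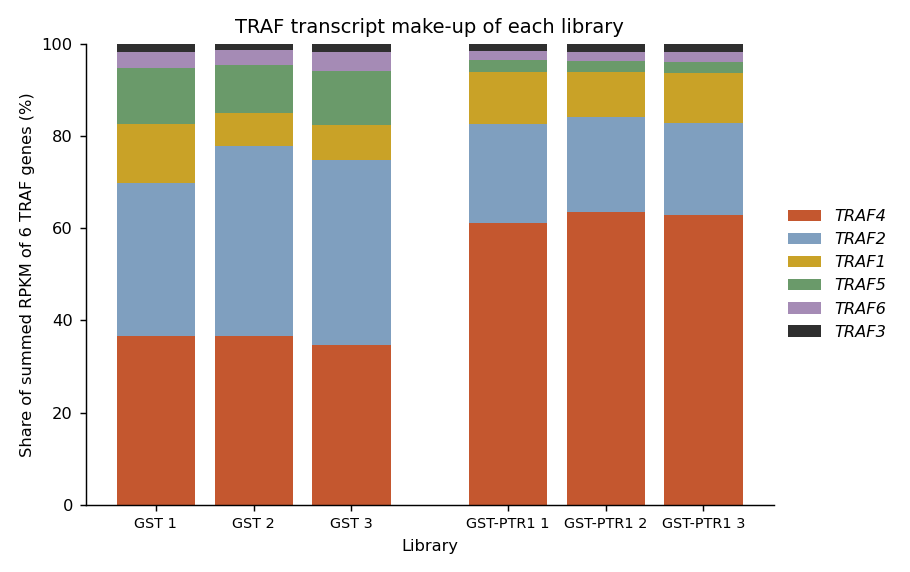
Share of each TRAF gene in the summed RPKM of the 6 TRAF genes (percent, stacked from 0 to 100) in each of the 6 libraries. TRAF4 takes a mean of 36.0% of the sum with GST and 62.6% with GST-PTR1.

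The order of the 9 levels differed between treatments. With GST the mean RPKM fell from TRAF2 (14.3) through TRAF4 (13.6), MAP3K14 (10.0), BIRC2 (9.37), TRAF5 (4.31), BIRC3 (3.76), TRAF1 (3.55) and TRAF6 (1.36) to TRAF3 (0.603). Only 3 of the 8 neighbouring pairs in this order did not overlap between their libraries, namely BIRC2 above TRAF5, TRAF1 above TRAF6 and TRAF6 above TRAF3. Without GST library 1, or without GST library 3, the number of such pairs was 5. With a library left out each range can only narrow, which makes it easier for pairs not to overlap. With GST-PTR1 the order was BIRC3 (49.98), TRAF4 (40.5), TRAF2 (13.4), BIRC2 (12.04), MAP3K14 (8.82), TRAF1 (6.86), TRAF5 (1.58), TRAF6 (1.35) and TRAF3 (1.05). Here 6 of the 8 neighbouring pairs did not overlap, and the exceptions were MAP3K14 with TRAF1 and TRAF5 with TRAF6.

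Genes that act around this complex were read from 7 lists of 63 genes, of which 61 were matched and 52 had enough counts to be tested. Of these 27 rose and 2 fell, and 20 and 2 did so by at least 2-fold, against the shares of all genes given above. Their median log2 fold change was 0.40. The lists too were chosen with earlier results of these data known, so these counts describe them and do not test them. Another 7 genes of the lists were at or under 3 counts in every library, among them CD40LG, the ligand of CD40, and LTBR, the receptor of lymphotoxin β. The remaining untested genes, TNFRSF4 and CXCL13, were at or under 3 counts in every GST library but not with GST-PTR1. TNFRSF4 had 6 counts in all with GST and 37 with GST-PTR1, and CXCL13 had 1 and 22.

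Among ligands of the TNF family, 5 of 9 tested rose and none fell, and by unadjusted p under 0.05 none was lower either. TNFSF9 (4-1BB ligand) went from 0.825 ± 0.198 to 53.9 ± 0.945 CPM (SD, n = 3), or 6.25 as log2 fold change (edgeR, adjusted p = 2.25e-09). LTB and LTA, the subunits of lymphotoxin, changed by 3.81 (edgeR, adjusted p = 2.87e-08) and 3.76 (adjusted p = 3.60e-06), and CD70, the ligand of CD27, by 3.65 (adjusted p = 1.37e-08). The fifth, TNFSF13B (BAFF), was named after its values were seen and stood near the threshold at 1.08 (edgeR, adjusted p = 0.0497), and it was the one of these 5 that DESeq2, limma voom and edgeR with library totals did not call. TNFSF12 was listed at 0 in every library, and 57.9% of its exon bases are shared with other genes on the same strand, whose reads such a count leaves out. Whether this accounts for the 0 was not tested.

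Among receptors 5 of 9 tested rose and 1 fell. CD40, a main receptor upstream of TRAF3, went from 3.10 ± 0.526 to 14.1 ± 2.34 CPM (SD, n = 3), or 2.38 as log2 fold change (edgeR, adjusted p = 1.16e-05). TNFRSF9 (4-1BB) changed by 3.05 (edgeR, adjusted p = 4.08e-06) and TNFRSF11A (RANK) by 2.56 (adjusted p = 0.000175). TNFRSF17 (BCMA), the plasma cell receptor for BAFF and APRIL, was at 30.6 ± 4.73 CPM with GST and fell to 9.91 ± 2.27 CPM with GST-PTR1 (log2 fold change -1.41, edgeR, adjusted p = 0.000374). TNFRSF13B (TACI) and TNFRSF1B rose by less, 0.51 (edgeR, adjusted p = 0.0142) and 0.38 (adjusted p = 0.0218), and were named after their values were seen. With library totals 3 of the 9 receptors were called higher.

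Of the kinases and transcription factors downstream, 6 of 7 tested rose, with a median of 0.66. RELB and NFKB2, which encode the subunits of the noncanonical dimer, changed by 2.28 (edgeR, adjusted p = 2.16e-07) and 2.09 (adjusted p = 3.69e-07), from 21.0 ± 2.32 to 89.3 ± 10.1 CPM and from 106 ± 10.8 to 394 ± 44.3 CPM (SD, n = 3). NFKB1, of the canonical pathway, changed by 1.84 (edgeR, adjusted p = 1.21e-06). Smaller changes passed for CHUK (IKKα) at 0.42 (edgeR, adjusted p = 0.0175), RELA at 0.35 (adjusted p = 0.0444) and REL at 0.66 (adjusted p = 0.0245), and 50.7% of the exon bases of REL are shared with another gene on its strand. With library totals these 3 were not called, and 3 of 7 rose. IKBKB (IKKβ) did not pass at -0.07 (edgeR, adjusted p = 0.711). None of the 4 other IAP genes tested (XIAP, BIRC5, BIRC6 and NAIP) passed either, with a median of -0.01, and DESeq2 and limma voom called none. NAIP, at -0.78, had an unadjusted p of 0.024 in edgeR and was called lower with library totals.

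TRAF partners and TRAF-related proteins were mixed, with 5 of 12 higher and 1 lower. TRAF3IP2 (Act1, an adaptor of IL-17 receptors) changed by 1.96 (edgeR, adjusted p = 0.000297), TNIP1 (a partner of A20) by 1.82 (adjusted p = 2.19e-06) and TRAFD1 by 1.32 (adjusted p = 3.52e-06). With library totals 3 of the 12 were called higher and 2 lower. TANK at 0.53 (edgeR, adjusted p = 0.00854) and TIFA at 0.51 (adjusted p = 0.0163) were named after their values were seen. TRAF3IP3 fell, with 13.3 ± 1.11 CPM in GST and 3.62 ± 0.950 CPM in GST-PTR1 libraries (SD, n = 3; log2 fold change -1.70, edgeR, adjusted p = 5.52e-05).

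Ubiquitin and turnover regulators held 4 genes of 9 that rose, all by at least 2-fold. These were TNFAIP3 (A20) at 2.73 (edgeR, adjusted p = 7.47e-08), the ligase PELI1 at 2.36 (adjusted p = 1.04e-07), the deubiquitinase CYLD at 1.13 (adjusted p = 1.46e-05) and the ligase SIAH2 at 1.10 (adjusted p = 3.10e-05). A20 and CYLD are known brakes on NF-κB. Both tested chemokines of the noncanonical pathway rose. CXCL12 went from 470.7 ± 25.9 to 835 ± 131 CPM (SD, n = 3), or 1.03 as log2 fold change (edgeR, adjusted p = 0.000544). CCL19 had 0, 0 and 3 counts with GST and 35, 86 and 55 with GST-PTR1, at least 11.3-fold higher when each GST library is set to 3 counts (edgeR, adjusted p = 9.76e-05).

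**Figure D5:**
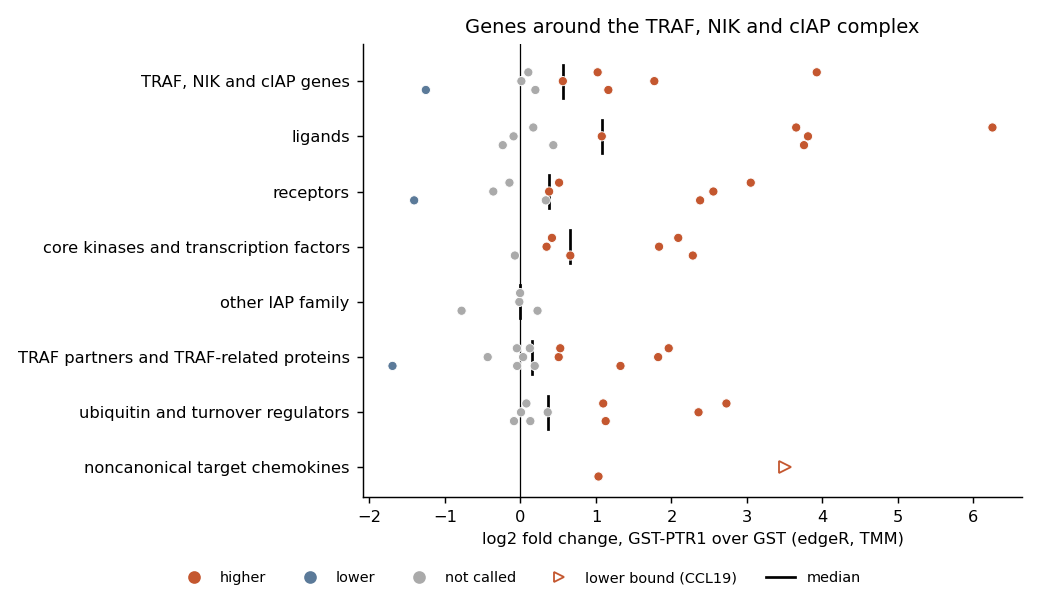
Log2 fold change, GST-PTR1 over GST (x axis), of the members and of the tested genes of 7 lists (y axis). Each point is a gene, colored by its call, black bars are medians of lists of more than 2 genes, and the open triangle is the lower bound of CCL19. The ligand TNFSF9 lies furthest to the right at 6.25, and none of the 4 other IAP genes is called in this fit.

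Genes whose pattern lay nearest to that of BIRC3 and of TRAF3 were taken from all other tested genes by the root mean square difference of log2 CPM, each set to its GST mean, over the 6 libraries. For BIRC3 these were C2CD4A (0.105), the lysosomal membrane protein gene DRAM1 (0.112) and the interferon-induced GTPase gene GBP1 (0.147), with log2 fold changes of 4.21, 3.90 and 3.81. For TRAF3 they were ETV3L (0.0814), the small GTPase gene RAB30 (0.105) and STEAP1 (0.109), with log2 fold changes of 1.26, 1.06 and 1.21. Few reads lay behind the GST values of C2CD4A (5, 13 and 9 counts), ETV3L (10, 10 and 11 counts) and STEAP1 (14, 15 and 14 counts), so their likeness is less certain.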

How the data were processed

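Total RNA of RPMI8226 cells was made into strand-specific libraries, and the authors deposited one table of whole-number read counts per gene with the exon length of each gene. Per the file headers, counting used featureCounts 1.5.0-p1 with the Ensembl 75 annotation of GRCh37. The deposited counts are not normalized, reads shared by several genes on a strand were left out, the submitters' processing notes name Subread without a role, and the aligner is not given in the sources used here. Treatments were taken from the column names. No 2 libraries of a treatment differed by less than sampling noise (smallest chi-square per gene 8.37).

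Genes were tested on these counts with edgeR 4.0.16 under R 4.3.3 (TMM factors, filterByExpr, glmQLFit and glmQLFTest, no covariate, Benjamini-Hochberg adjustment). RPKM and CPM used library totals, log2 CPM a prior count of 2, and ratios an exact permutation test. A floor of 3 counts covers counting error only. Alternatives were DESeq2 1.42.0, limma 3.58.1 voom, other scalings and filters, and each library left out. The members and lists were chosen with earlier results of these data known. Genes named beside the members were all of the core list and, of each other list, up to 4 in each direction with at least 2-fold change and the smallest adjusted p, and the 3 genes most like BIRC3 and TRAF3. IKBKG and OTUD7B were not matched. Promoters came from RefSeq (GRCh38.p14) by symbol for 9 members.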

Additional observations from a re-analysis of the deposited data

How the results depend on the processing

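The 5 calls as higher and the 1 as lower among the members were the same in all 14 alternatives. Values that changed sign were those of members not called. With library totals, TRAF2 was at -0.093, TRAF6 at -0.0017 and MAP3K14 at -0.18 on the log2 scale. MAP3K14 ranged from -0.083 to 0.12 when 1 library was left out, below 0 without GST library 3, GST-PTR1 library 1 or GST-PTR1 library 3. With library totals 4 genes of the lists around the complex were called lower, against 2, and 19 higher, against 27. With 1 library left out, 20 to 26 were called higher. The pairs of neighbouring GST levels without overlap numbered 5 without GST library 1 or 3, against 3. They numbered 3 without GST library 2 and 4 with RPKM on TMM-scaled totals. Leaving out a library can only narrow the ranges, so a rise in this number is partly built in. TRAF1 ranged from 0.99 to 1.56 and TRAF3 from 0.87 to 1.15 with 1 library left out. With library totals they were at 0.96 and 0.82, both under 2-fold. The largest adjusted p over the alternatives was 0.0311 for TRAF1, 0.0191 for TRAF3 and 0.0279 for BIRC2.

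A replicate block by the labels' replicate number was not run, because the column names do not carry those numbers. The numbers in the names are shared by 4 libraries, whose deviations had a correlation of -0.03 across genes. A correlation over 4 libraries cannot decide whether they share more than a number. In those 4 libraries a block on this number, chosen after seeing the data, called 5 members higher and 1 lower, as without the block. It called 3318 of all genes, against 3638 without the block.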
